A study of Mus musculus with 6 samples.

Results

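Adrenergic receptors are the G protein-coupled receptors for noradrenaline and adrenaline. Transcripts of 8 of their genes, among 55483 features in all, were picked by symbol: Adra1a, Adra1b and Adra1d (alpha-1), Adra2a, Adra2b and Adra2c (alpha-2), and Adrb1 and Adrb3 (beta). The libraries were made from whole oviducts of pregnant mice that had been mated at 6-8 weeks of age and were killed on gestational day 3, with the plug day as day 1. Of the 6 libraries, 3 were labelled Mettl3 f/f, the usual notation for an allele flanked by loxP sites, and 3 Mettl3 d/d, its deleted form. Mettl3 is the catalytic subunit of the enzyme that writes N6-methyladenosine on RNA. The Cre driver, and so the cells in which Mettl3 would be deleted, is not given in the sources used here. Library values are listed below in the order of replicates 1, 2 and 3.

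Alpha-1 receptors couple to Gq proteins, which activate phospholipase C, raise calcium and contract smooth muscle. Alpha-2 receptors couple to Gi proteins, which inhibit adenylyl cyclase, and on sympathetic nerve endings they restrain noradrenaline release. Beta receptors couple to Gs, which raises cyclic AMP and relaxes smooth muscle. Sympathetic nerves reach the muscle of the oviduct wall, where alpha and beta receptors have opposed effects on contraction.

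The FPKM steps implied 16600000 to 17800000 fragments per library. The targeted gene did not fall: Mettl3 gave 11.8, 12.1 and 13.2 FPKM in the f/f libraries and 19.8, 20.3 and 24.5 in those labelled d/d (log2 change 0.75, limma adjusted p = 0.0145, and 0.0688 if f/f replicate 2 is dropped). Gene-level FPKM cannot reveal a missing exon, so the genotype labels were not checked by it, and the directions given here rest on those labels. The oviduct glycoprotein gene Ovgp1, which marks the tissue, lay between 2651 and 5690.3 FPKM in all 6 libraries. The library f/f replicate 1 stood apart in its markers. Its 10 smooth muscle markers summed to 2298 FPKM, against 5361 and 5491 in its group, and its 8 adipocyte markers to 67.8, against 7.90 and 18.2. In such bulk tissue, fewer cells of a type and less RNA per cell cannot be told apart.

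The preferred RNA motif of the Mettl3 complex has GGACT (written with T) as its best known form, so its copies were counted on the sense strand of the longest protein-coding transcript of each receptor gene. No methylation was measured in these libraries, and a match is a description only. Of 13467 tested protein-coding transcripts 92.5% held the motif, with a median of 1.06 copies per kb. Adra2a (ENSMUSG00000033717, chr19:54044151-54048982, plus strand, GRCm38) is a gene of 1 exon and held 3 copies in 4832 nt, where the 1469 tested transcripts within 10% of its length had a median of 5 and 99.1% held at least 1. All 3 copies lay in its 5′ untranslated region. They are printed because Adra2a was the receptor gene that changed, in capitals with 10 bases on each side, at chr19:54044321-54044325, chr19:54044507-54044511 and chr19:54045736-54045740 in turn.
Adra2a site 1: ggaagatccaGGACTctcacatctg
Adra2a site 2: atggaggaaaGGACTccagaggagc
Adra2a site 3: gacagacctaGGACTccgagcccac

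The other alpha-2 genes held 4 copies each, 2 of them in the coding region. In both, 1 coding copy lay in a stretch that the alpha-2 genes share, at chr2:127364856-127364880 in Adra2b and chr5:35281189-35281213 in Adra2c. The best match of Adra2a to the 25 bases of Adra2b, with 22 of 25 equal, lay in its coding region at chr19:54047542-54047566. It differed from Adra2b within the motif by G11C, counted from 1 at the 5′ end of the window, and outside it by C20A and T23C. Adra2c had 20 of 25 bases equal to Adra2b and kept the motif. The windows are printed in coding sense, all on the plus strand, with the 5 bases at the motif in capitals, to show how Adra2a departs from its relatives there.
Adra2a window: tcttcaaccaCGACTtccgacgcgc
Adra2b window: tcttcaaccaGGACTtccgccgtgc
Adra2c window: tcttcaatcaGGACTtcaggcgctc

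Of the remaining genes, Adrb3 (chr8:27225776-27250616, minus strand) held 7 copies in 2795 nt and Adra1b (chr11:43774606-43901210, minus) 6 in 3331 nt. Adra1a (chr14:66635251-66771168, plus) held 4, Adrb1 (chr19:56722199-56733113, plus) 1 and Adra1d (chr2:131545850-131562283, minus) 0. Annotated antisense genes overlap Adra1d and Adrb3, and without a stated strand setting their reads cannot be separated. The antisense gene at Adra1d was listed at 0 in every library, and that at Adrb3 gave 0.0293 to 0.214 FPKM.

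The receptor genes were low in the whole oviduct. All 8 were above 0 in each of the 6 libraries, at 0.137 to 14.1 FPKM, while the median tested feature had 12.6 FPKM. The minimum mean of 1 FPKM was passed by 5 (Adra1b, Adra2a, Adra2c, Adrb1 and Adrb3), and Adra1a, Adra1d and Adra2b lay under it, Adra1d narrowly at a mean of 0.9997. Of the 5 tested genes 1 rose and 0 fell in the libraries labelled d/d, where 11.0% of all tested features were called, 6.04% higher and 4.97% lower. The one called, Adra2a, was also the one with an unadjusted p under 0.05, which 29.6% of tested features had. The d/d values did not overlap the f/f values in Adra2a and Adra1b of the 5, both higher, where 35.6% of tested features did not overlap (18.1% higher, 17.4% lower).

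With a minimum of 0.1 FPKM all 8 genes could be tested, and Adra2a was again the one called, against 7.20% of features (3.94% higher and 3.26% lower). An unadjusted p under 0.05 was found for 3 genes (Adra1a, Adra2a and Adra2b) at this minimum, and for 25.3% of features. In 4 of the 8 genes the groups did not overlap, 3 higher (Adra1b, Adra2a and Adra2b) and 1 lower (Adra1a) in d/d, while 31.8% of features did not overlap, 15.7% higher and 16.0% lower.

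**Figure D1:**
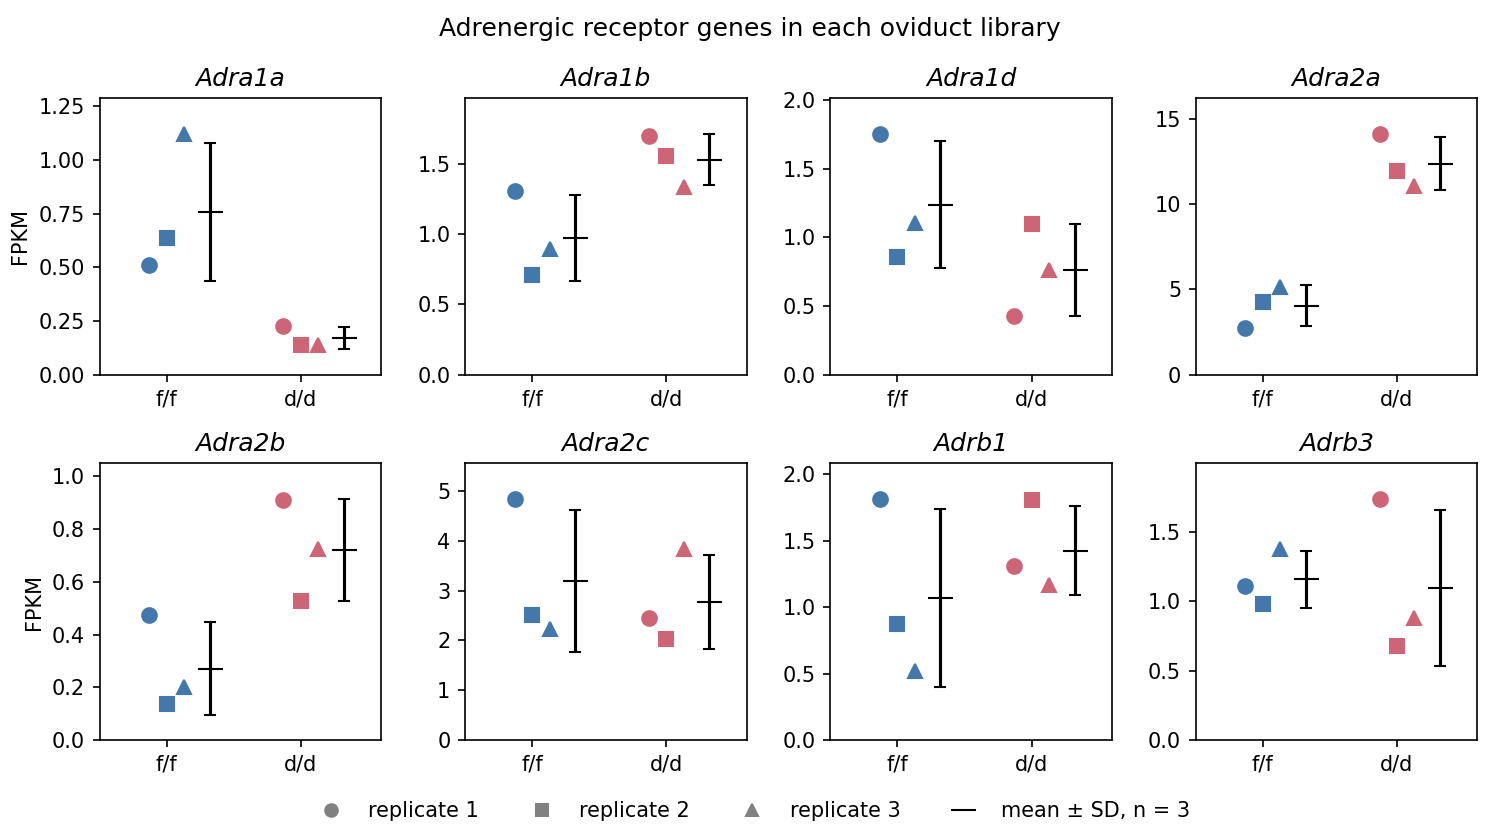
FPKM of the 8 receptor genes in each library. Each panel is a gene with its own linear axis from 0, each point a library (marker shape gives the replicate), and the bars are the mean ± SD of 3 libraries; the d/d points of Adra2a sit between 11.1 and 14.1 FPKM, above the f/f points at 2.76 to 5.13, and those of Adra1a sit below its f/f points.

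Adra2a, the alpha-2A receptor gene, was the member that rose. Its product is known for restraining noradrenaline release and for lowering cyclic AMP in target cells. The f/f libraries gave 2.76, 4.25 and 5.13 FPKM and the d/d libraries 14.1, 11.9 and 11.1. Every d/d library lay above every f/f library, and f/f replicate 1 was the lowest of all. The share of FPKM from mitochondrial DNA separated the groups too, at 4.47, 5.70 and 3.61 percent in f/f libraries, against 6.50, 6.76 and 9.70 percent in d/d libraries. With each library rescaled to its nuclear protein-coding FPKM, the log2 change of Adra2a was 1.40 (limma adjusted p = 0.0109). Any other part of the mitochondrial share in the Adra2a result was not tested. The group means were 4.05 ± 1.20 and 12.4 ± 1.56 FPKM (SD, n = 3 per group), a ratio of 3.06. The log2 change was 1.43 (SE 0.21, 95% interval 0.94 to 1.92, limma adjusted p = 0.0119), and the exact permutation test gave a two-sided p of 0.1, its minimum with 3 libraries a group. It missed the threshold when f/f replicate 2 was left out (1.47, limma adjusted p = 0.0527) or when the replicate number was a block (limma adjusted p = 0.0620).

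Adra2b, the gene of the alpha-2B receptor, which contracts vessels, was the lowest receptor gene in the f/f group. The f/f libraries gave 0.472, 0.137 and 0.202 FPKM, the d/d libraries 0.912, 0.527 and 0.724. The groups were apart, with f/f replicate 1 close below d/d replicate 2, and the fragments behind these values were few, about 9 to 31 per f/f library and 32 to 58 per d/d library. The d/d mean was 2.67 times the f/f mean, and 4.25 times without f/f replicate 1. At the minimum of 0.1 it was not called (log2 change 0.44, unadjusted 95% interval 0.05 to 0.83, limma adjusted p = 0.159).

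Adra2c encodes the alpha-2C receptor, which also acts on nerve endings. It gave 4.84, 2.52 and 2.23 FPKM in f/f libraries and 2.45, 2.03 and 3.84 in d/d libraries, from single-transcript counts of about 108 to 274 fragments. The groups overlapped, with the highest value in f/f replicate 1. It was not called (log2 change -0.13, 95% interval -0.83 to 0.57, limma adjusted p = 0.805), and without f/f replicate 1 the difference was 0.13. The ratio of Adra2a to Adra2c was 0.570, 1.69 and 2.30 in f/f libraries, against 5.76, 5.87 and 2.88 in d/d libraries. Adra2a was the lower of the pair in f/f replicate 1 and the higher in the 5 other libraries.

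No alpha-1 gene was called at either minimum. Adra1a encodes the alpha-1A receptor, a main contractile receptor of urogenital smooth muscle. Its values were 0.512, 0.639 and 1.12 FPKM in f/f libraries, against 0.229, 0.140 and 0.140 in d/d libraries. Each d/d value lay below each f/f value, at means of 0.757 ± 0.321 and 0.170 ± 0.0511 FPKM (SD, n = 3 per group), a 4.46-fold lower d/d mean. Behind the d/d values were about 5 to 8 fragments if its shortest transcript (2337 nt) was the source, or 9 to 16 if its longest (4282 nt) was. At the minimum of 0.1 the log2 change was -0.57 (unadjusted 95% interval -0.97 to -0.18), which missed the threshold after adjustment (limma adjusted p = 0.0882). It was -1.62 with a pseudocount of 0.1 added as well, a setting picked once the data were known (limma adjusted p = 0.0774).

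Adra1b, the alpha-1B receptor gene, lay on the other side. It gave 1.31, 0.713 and 0.895 FPKM in f/f libraries and 1.70, 1.56 and 1.34 in d/d libraries. The groups did not overlap, but f/f replicate 1 and d/d replicate 3 nearly met. It was not called (log2 change 0.37, 95% interval -0.16 to 0.89, limma adjusted p = 0.311). The ratio of Adra1b to Adra1a was 2.56, 1.12 and 0.798 in f/f libraries, against 7.44, 11.1 and 9.54 in d/d libraries, all d/d ratios being the higher. This ratio was not tested.

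Adra1d, the alpha-1D receptor gene of arterial muscle, has 1 annotated transcript, and its FPKM came close to whole fragments, 51, 25 and 31 in f/f libraries, against 12, 30 and 21 in d/d libraries. The corresponding values were 1.75, 0.858 and 1.11 FPKM and 0.425, 1.099 and 0.759 FPKM. The groups overlapped, since d/d replicate 2 exceeded f/f replicate 2. At the minimum of 0.1 it was not called (log2 change -0.34, unadjusted 95% interval -0.88 to 0.19, limma adjusted p = 0.385). The difference was -0.04 when its highest library, f/f replicate 1, and its lowest, d/d replicate 1, were both left out.

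Neither beta gene was called. Adrb1, the main beta receptor gene of heart muscle, gave 1.81, 0.876 and 0.520 FPKM in f/f libraries, against 1.31, 1.81 and 1.16 in d/d libraries. The d/d values lay inside the f/f range, whose ends were f/f replicates 1 and 3 (log2 change 0.27, 95% interval -0.42 to 0.96, limma adjusted p = 0.576). The d/d mean was 1.33 times the f/f mean, and 2.04 times without f/f replicate 1.

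Adrb3, which drives fat breakdown in adipocytes and relaxes bladder muscle, gave 1.11, 0.981 and 1.38 FPKM in f/f libraries, against 1.74, 0.674 and 0.879 in d/d libraries. Its highest and lowest values both belonged to d/d (log2 change -0.07, 95% interval -0.70 to 0.56, limma adjusted p = 0.887). The adipocyte marker Adipoq gave 5.86, 0.219 and 0.910 FPKM in f/f libraries, and in d/d it was listed at 0 in replicate 1 and gave 1.58 and 0.115 in the others. An exact 0 in such tables can be a failed estimate. All 8 adipocyte markers summed to 67.8, 7.90 and 18.2 FPKM in f/f libraries, against 4.82, 11.3 and 3.91 in d/d libraries. The part of adipocytes in the Adrb3 values was not tested.

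**Figure D2:**
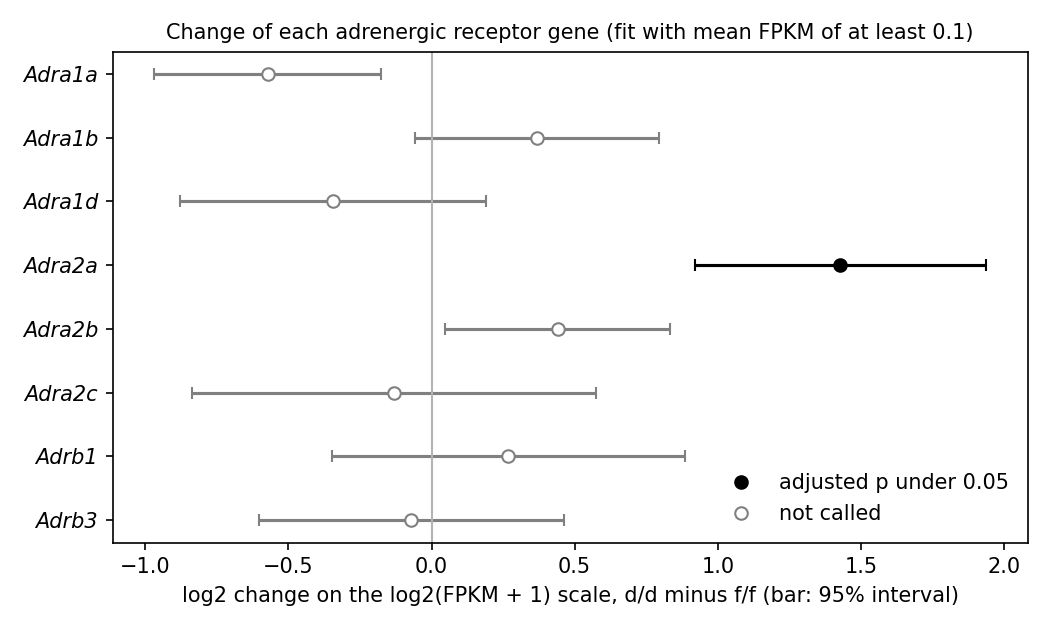
Log2 change of each receptor gene, d/d minus f/f, on the log2(FPKM + 1) scale, from the fit over features with a mean of at least 0.1 FPKM. Points are estimates from 3 libraries a group and bars are unadjusted 95% intervals; the filled point, Adra2a at 1.43, is the one with an adjusted p under 0.05.

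Adra2a took a larger share of the family total in the d/d libraries. FPKM is scaled to transcript length, so levels of different genes can be set side by side. The 8 genes summed to 12.7 ± 1.80 FPKM in f/f against 20.9 ± 1.74 in d/d (SD, n = 3 per group). The 7 without Adra2a summed to 8.66 ± 2.75 against 8.48 ± 0.560 (SD, n = 3 per group). Replicate by replicate, the f/f sums of these 7 were 11.8, 6.72 and 7.46, while the d/d sums were 8.76, 7.84 and 8.85. The near-equal means thus rested on f/f replicate 1, since every d/d sum lay above those of f/f replicates 2 and 3. Adra2a made up 18.9, 38.7 and 40.8 percent of the sum in f/f libraries and 61.7, 60.4 and 55.6 percent in d/d libraries, without overlap. The alpha-1 share was 23.2% ± 2.62 in f/f and 11.9% ± 2.00 in d/d, and the beta share 17.4% ± 2.52 and 12.04% ± 1.59 (SD, n = 3 per group). Shares add to the whole, so a larger share of 1 gene lowers the rest, and the alpha-1 sum was 2.97 ± 0.694 FPKM in f/f against 2.46 ± 0.294 in d/d (SD, n = 3 per group). Shares and sums were not tested.

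**Figure D3:**
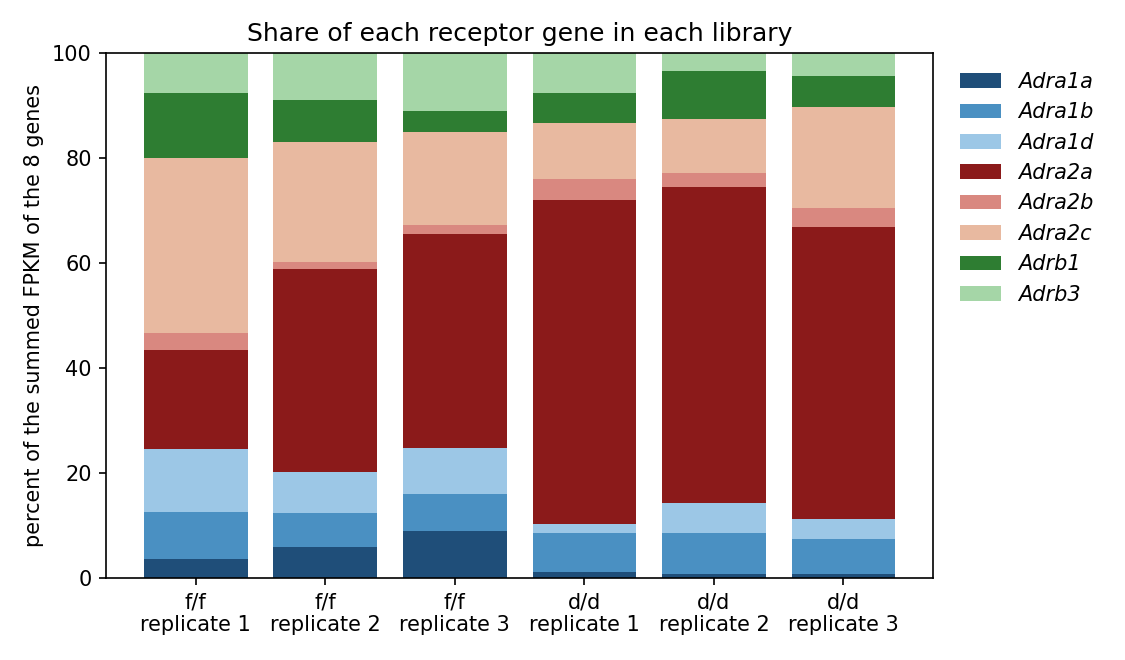
Share of each of the 8 receptor genes in their summed FPKM, as stacked bars from 0 to 100 percent for each library. Blue shades are alpha-1, red shades alpha-2 and green shades beta genes; the Adra2a band spans 18.9% to 40.8% in f/f libraries and 55.6% to 61.7% in d/d libraries.

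By mean FPKM the f/f order was Adra2a, Adra2c, Adra1d, Adrb3, Adrb1, Adra1b, Adra1a and Adra2b. Of neighbours in it, Adra2c and Adra1d, and Adra1a and Adra2b, had ranges that did not overlap, and the others overlapped. The d/d order was Adra2a, Adra2c, Adra1b, Adrb1, Adrb3, Adra1d, Adra2b and Adra1a. There the ranges were apart between Adra2a and Adra2c, Adra2c and Adra1b, and Adra2b and Adra1a.

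Markers of cell types that can carry these receptors moved in part with the groups. All 4 macrophage markers rose, where 6.04% of tested features did, with a sum of 217 to 251 FPKM in f/f libraries and 597 to 806 in d/d. The defining markers Lyz2 and Adgre1 went from 138 ± 8.34 to 466 ± 79.8 and from 14.1 ± 3.97 to 33.4 ± 4.399 FPKM (SD, n = 3 per group). As single libraries were left out, Lyz2 kept its call in all 6 fits, C1qa in 3, and Adgre1 and Cd68 in 2 each. The 10 smooth muscle markers summed to 2298 to 5491 FPKM in f/f libraries and 2812 to 4579 in d/d. Of the 10, 2 fell (Des and Synpo2), where 4.97% of all tested features fell. Myh11 and Acta2 were not called (limma adjusted p = 0.431 and 0.687). Des and Synpo2 kept their calls in 1 of the 6 fits without a single library. Of 7 endothelial markers 1 rose (Vwf), beside 6.04% of all tested features, with sums of 165 to 194 FPKM in f/f libraries and 196 to 265 in d/d. Of 5 pericyte markers 2 fell (Rgs5 and Abcc9), beside 4.97% of all tested features. The 5 summed to 140.5 to 178 FPKM in f/f libraries and 124 to 166 in d/d. Of those 6 fits Rgs5 kept its call in 0 and Abcc9 in 2. The 5 secretory epithelial markers summed to 4723 to 6219.7 FPKM in f/f libraries and 3082 to 5522 in d/d. Of the 5, Epcam rose and Krt18 fell, beside 6.04% and 4.97% of all tested features, calls kept in 1 and 0 of those fits. The part of these cell types in the higher Adra2a and in the lower Adra1a values was not tested.

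Of the markers in the remaining lists with a mean of at least 1 FPKM, 0 were called, where 11.0% of all tested features were. The 5 multiciliated markers summed to 69.8 to 222 FPKM in f/f libraries and 24.2 to 115 in d/d, the 8 adipocyte markers to 7.90 to 67.8 FPKM in f/f libraries and 3.91 to 11.3 in d/d, and the 4 Schwann cell markers to 11.9 to 14.7 FPKM in f/f libraries and 5.25 to 10.7 in d/d. For the 6 neuronal markers the sums were 7.85 to 14.4 FPKM in f/f libraries and 6.90 to 8.11 in d/d, with Snap25 and Elavl4 at no more than 0.0909 FPKM in any library. Of the 6, 4 had a higher d/d mean, and Tubb3, under the minimum of 1, gave 0.105, 0.315 and 0.230 FPKM in f/f libraries, against 0.830, 1.61 and 1.11 in d/d libraries, and was called higher at the minimum of 0.1 (limma adjusted p = 0.0413). Its part in the Adra2a result was not tested. The ovary list gave 27.7 to 54.5 FPKM in f/f libraries and 36.9 to 41.6 in d/d, the mast cell list 2.81 to 4.26 FPKM in f/f libraries and 0.428 to 2.56 in d/d, and Hoxa10 and Hoxa11, of the uterine end of the tract, 3.68 to 27.6 FPKM in f/f libraries and 4.24 to 13.2 in d/d.

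The genes of the ligand-making enzymes were low. Th, Dbh and Pnmt, enzymes on the way from tyrosine to adrenaline, gave at most 0.207 FPKM. Ddc, also on that way, gave 0.318, 0.401 and 0.652 FPKM in f/f libraries, against 0.250, 0.495 and 0.0356 in d/d libraries. Of 14 genes for ligand synthesis, storage and clearance 6 were tested, of which 0 rose and 1 fell, where 4.97% of all tested features fell. Maob, a monoamine oxidase, gave 54.2, 62.0 and 64.2 FPKM in f/f libraries, against 33.9, 18.3 and 25.3 in d/d libraries, a 2.33-fold lower d/d mean without overlap (log2 change -1.23, SE 0.21, limma adjusted p = 0.0185). It missed the threshold when any of f/f replicates 2 and 3 and d/d replicate 3 was left out (limma adjusted p = 0.0741, 0.0678 and 0.0634). Maob also missed it with the replicate block (limma adjusted p = 0.0663). The carrier Slc22a3 was at 41.6 ± 11.2 FPKM in f/f against 37.0 ± 13.2 (SD, n = 3 per group). The noradrenaline transporter Slc6a2 gave 6.77 FPKM in d/d replicate 2 and at most 0.419 in the 5 other libraries.

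Among 10 G protein alpha subunits 0 rose and 1 fell, a share near the 11.0% called over all tested features. Gnai1, through which alpha-2 receptors inhibit adenylyl cyclase, went from 44.9 ± 10.97 to 20.98 ± 5.25 FPKM (SD, n = 3 per group), a log2 change of -1.06 (limma adjusted p = 0.0414). Of the 6 fits without a single library, its call was kept in the one without f/f replicate 1, and it was also lost with a minimum of 0.1, no minimum or no variance trend (limma adjusted p = 0.0501, 0.0784 and 0.0521). The replicate block lost the call too (limma adjusted p = 0.116). Gnai2, the most abundant Gi subunit, stood at 257 ± 9.79 FPKM in f/f against 302 ± 21.6 (SD, n = 3 per group) and was not called (limma adjusted p = 0.203).

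Of 11 phospholipase C and calcium effectors, which act behind alpha-1 receptors, 0 rose and 2 fell, beside 4.97% of all tested features that fell. Plcb1, a phospholipase C activated by Gq, gave 13.1, 10.9 and 12.5 FPKM in f/f libraries, against 7.21, 6.39 and 7.02 in d/d libraries, without overlap (log2 change -0.74, SE 0.12, limma adjusted p = 0.0155). Prkca, a calcium-dependent protein kinase C, fell from 9.69 ± 1.41 to 5.86 ± 0.499 FPKM (SD, n = 3 per group), with a log2 change of -0.63 (limma adjusted p = 0.0399). Plcb1 kept its call when replicate 1 of either group was left out, and Prkca when that of f/f was, and each lost it without any other single library. Prkca also lost it with a minimum of 0.1 or none (limma adjusted p = 0.0576 and 0.0771). With the replicate block Plcb1 and Prkca were not called (limma adjusted p = 0.0611 and 0.111). The median log2 change of the list was -0.20, and over all tested features it was -0.01.

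Of 20 tested cyclic AMP effectors 0 were called, where 11.0% of all tested features were. Their median log2 change was -0.22, beside -0.01 over all tested features. The protein kinase A subunit genes Prkar1a and Prkacb, its most abundant, stood at 148 ± 19.1 and 47.3 ± 5.23 FPKM in f/f against 115 ± 4.80 and 41.4 ± 2.51 (SD, n = 3 per group). Of 12 genes for receptor desensitisation and RGS proteins, which end G protein signals, 2 rose and 0 fell, beside 6.04% of all tested features that rose. Rgs4, which speeds the shut-off of Gq and Gi, gave 3.93, 4.61 and 5.94 FPKM in f/f libraries, against 13.5, 12.98 and 8.70 in d/d libraries, a 2.43-fold higher d/d mean without overlap (log2 change 1.12, SE 0.21, limma adjusted p = 0.0225). Arrb2, an arrestin that uncouples receptors, rose from 22.5 ± 4.43 to 40.6 ± 4.73 FPKM (SD, n = 3 per group), a log2 change of 0.83 (limma adjusted p = 0.0254). Rgs4 missed the threshold when any of f/f replicate 2 and d/d replicates 1 and 2 was left out, and Arrb2 without any single library other than f/f replicate 1. With no minimum, the replicate block or both replicates 1 left out, Rgs4 missed it too (limma adjusted p = 0.0508, 0.0902 and 0.0746).

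**Figure D4:**
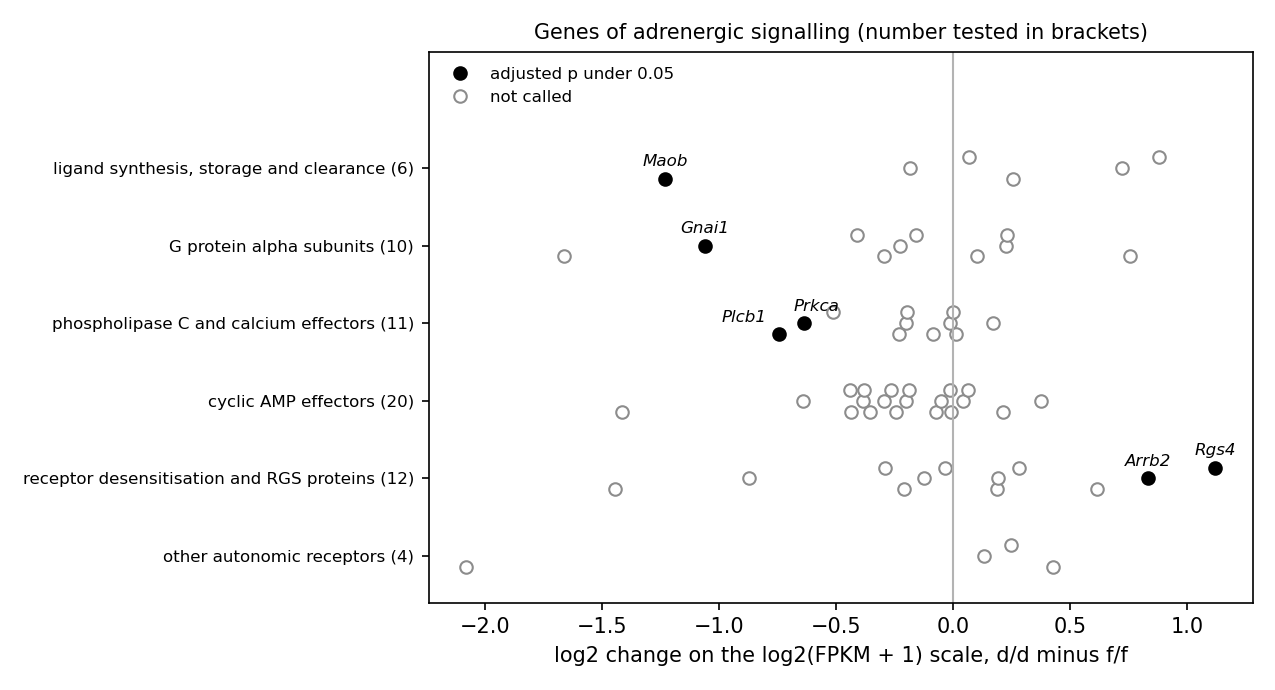
Log2 change of the tested genes of 6 lists of adrenergic signalling, d/d minus f/f, on the log2(FPKM + 1) scale. Each point is a gene, spread vertically within its list for legibility only, and filled points have an adjusted p under 0.05; they are Maob, Gnai1, Plcb1 and Prkca on the lower side and Arrb2 and Rgs4 on the higher side.

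Of 11 other autonomic receptor genes 4 were tested, of which 0 rose and 0 fell, where 11.0% of all tested features were called. The neuropeptide Y receptor gene Npy1r stood at 5.42 ± 0.729 FPKM in f/f against 6.80 ± 2.29 (SD, n = 3 per group) and was not called (limma adjusted p = 0.494). Npy2r, a presynaptic receptor for the same peptide, gave 0.614, 7.58 and 7.37 FPKM in f/f libraries, against 0.0188, 0.331 and 0.135 in d/d libraries. Each d/d value lay below each f/f value, and f/f replicate 1 was far below the rest of its group (limma adjusted p = 0.0869). Without f/f replicate 1 Npy2r was called lower (log2 change -2.88, limma adjusted p = 0.00327).

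The genes whose log2(FPKM + 1) followed each tested receptor most closely over the 6 libraries were sought among 13028 protein-coding candidates. High coefficients arise readily from so many candidates and so few libraries, so they are descriptions. Adra2a was followed by Zbtb2 (r = 0.998), Rnf113a1 (0.996) and Tubb5 (0.995), Adra1b by Mpzl2 (0.996), Sh3bp2 (0.996) and Ccna2 (0.994), and Adra2c by Ngef (0.989) and Rpl36a (0.979), a gene with near-identical copies. Adrb1 was followed by Tgfb2 (r = 0.996), Plch1 (0.992) and Slc43a2 (0.988), and Adrb3 by Rxrb (0.991), Ppara (0.985) and Trmt13 (0.983).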

How the data were processed

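RNA of whole oviducts was sequenced in 6 libraries, with TRIzol extraction and the TruSeq RNA sample kit, per the labels' protocols. Deposited values were taken to be FPKM computed by the authors, an inference from the values and from Cufflinks 2.2.1, named beside HISAT2 2.2.1, mm9 and mm10 in the submitters' processing notes. No annotation or strand setting is given in the sources used here. Of 55483 features, 99.4% matched GENCODE release M21 (GRCm38) by identifier, which supplied coordinates and transcripts. The 114 symbols found on several rows were summed.

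The main test was limma 3.58.1 (R 4.3.3) on log2(FPKM + 1) with a variance trend, over features whose mean FPKM was at least 1, with genotype as its one term and with two-sided Benjamini-Hochberg adjusted p-values over all 15438 features. Log2 changes are d/d minus f/f, and folds are ratios of mean FPKM. Receptor genes under the minimum were also fitted with a minimum of 0.1, and exact permutation tests used scipy 1.17.1. In 10 simulated data sets with normal noise, 200 of 15438 features were shifted. The fit found 3.73% of genes shifted by 0.5 log2 units, 37.8% of those shifted by 1 and 79.1% of those shifted by 2, with 5.55% false calls. In the real data 1701 features were called, so these percentages are not the power of this experiment. The number of fragments per library was derived from the lowest FPKM steps of single-transcript genes, assuming fragments of 255 nt. Whether replicates are separate animals is not in the labels, so the p-values reflect spread among these libraries that may be technical.

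The receptor genes, pathway lists and marker lists were chosen with earlier results of these data known. Named genes were the 8 receptors, Mettl3, in each of 6 pathway lists up to 3 called genes with the largest changes (where none was called, the 2 most abundant), the first markers of each marker list, and for each tested receptor the 3 protein-coding genes with the highest correlation. Of the genes this rule names, 1 is not reported here. Other genes were named after their values were seen. Alternatives were a pseudocount of 0.1, other minimum values, 3 other scalings, no variance trend, a replicate block and left-out libraries.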

Additional observations from a re-analysis of the deposited data

How the results depend on the processing

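Adra2a kept its direction under every alternative run, with log2 changes of 1.23 to 1.58 as single libraries were left out and 1.14 when both replicates 1 were, and its call was lost with the replicate block (1.43, adjusted p = 0.0620) and without f/f replicate 2. The number of receptors called was 0 with the replicate block and 0 to 1 with a library left out. Features called numbered 1701, and 1107 with no filter, 276 with the replicate block and 308 to 1795 with a library left out, the ends being without f/f replicate 2 and f/f replicate 1. The cause was not tested. Mettl3 was at 0.75 with the replicate block (adjusted p = 0.0559) and 0.66 to 0.80 with a library left out, its call being lost without f/f replicate 2 (adjusted p = 0.0688). Receptors that were not called could change sign with a library left out: Adra2c ran from -0.32 to 0.13 (0.01 without d/d replicate 2) and Adrb3 from -0.28 to 0.076 (0.00288 without f/f replicate 3). Adra1d ran from -0.48 to -0.19 and Npy1r from 0.02 to 0.38. With both replicates 1 left out, Adra2c was at 0.18, Adra1d at -0.042 and Npy1r at -0.066. Pathway genes called numbered 6, and 3 with no filter, 1 with the replicate block (Arrb2, limma adjusted p = 0.0493), 12 with both replicates 1 left out and 0 to 11 with a library left out. Deviations of same-numbered libraries from their group means correlated at -0.22 to 0.0027, and 0 of 6 libraries correlated best with their own number. With 3 libraries a group these correlations cannot decide whether same-numbered libraries shared a batch, and the labels do not say. The low receptors rest on few fragments, which limits what could be detected for them.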

Other observations

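These genes were picked after their values were seen. In several signalling genes that were not called, f/f replicate 1 lay far below the other f/f libraries, and each d/d value lay below each f/f value. Gnao1, a G protein alpha subunit of neurons, gave 9.06, 31.96 and 27.3 FPKM in f/f libraries, against 8.52, 4.61 and 4.54 in d/d libraries (limma adjusted p = 0.0674). Rgs2, a regulator that shuts off Gq, gave 51.3, 113 and 126 FPKM and 44.6, 22.8 and 33.7 FPKM in the same order (limma adjusted p = 0.0576). The adenylyl cyclase gene Adcy8 gave 0.310, 2.77 and 3.22 FPKM and 0.0145, 0.0303 and 0.0534 FPKM (limma adjusted p = 0.101). Slc18a2, which loads monoamines into vesicles, lay higher in every d/d library, with 1.11, 0.844 and 0.959 FPKM in f/f libraries, against 1.93, 2.09 and 2.78 in d/d (limma adjusted p = 0.0688).

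Of 6 tested genes within 500 kb of Adra2a 0 were called, with a median log2 change of -0.14. Around the other receptors, 2 of 13 were called near Adra2c (Hgfac and Htra3), 2 of 7 near Adrb3 (Brf2 and Eif4ebp1), 2 of 19 near Adra1d (Prnd and Smox), 1 of 5 near Adra1b (C1qtnf2), 1 of 7 near Adrb1 (Ablim1), 0 of 5 near Adra1a and 0 of 22 near Adra2b, where 11.0% of all tested features were called.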
